A study of Mus musculus with 9 samples.

Results

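The transcription factors Irf8, Runx1, Mef2a, Mef2c, Maf, Cebpa, Cebpb, Smad3, and Irf5, which together specify or maintain the microglial lineage, were followed across primary mouse microglia treated with control siRNA, Chd8 siRNA, or Tsc2 siRNA. The 9 genes were taken as a list of names, and they are 9 of the 54119 genes in the deposited data. For each of them the counts of all its annotated transcripts were summed, and all 9 passed the filter on low counts that left 16273 genes. Cebpa had the lowest mean level per transcript length of the 9 genes, in a range that overlapped that of Smad3, and it was the single member whose Chd8 siRNA libraries all lay below all control siRNA libraries, where 9.09% of all genes tested had groups that did not overlap. Runx1 and Cebpb were higher, and Irf5, Smad3, and Mef2c lower, in every library of replicate number 1 than in every other library, and 18.8% of all genes tested were likewise apart in one direction or the other.

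The microglia came from whole brains of C57BL/6J mouse embryos, were shaken off mixed glial cultures, and received negative control, Chd8, or Tsc2 siRNA by lipofection. siRNA directs the cell to degrade an mRNA of matching sequence, so a knockdown is partial and leaves the gene in place. Chd8 encodes a chromatin remodeler and Tsc2 an inhibitor of mTOR signaling. Each siRNA was represented by 3 RNA-seq libraries with the replicate numbers 1, 2, and 3, and the methods place RNA isolation after 3 days of siRNA. The study describes the RNA-seq cultures as stimulated with LPS, a bacterial component that activates microglia, and its list of unstimulated experiments does not include them, while the sample descriptions do not mention LPS.

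Microglia arise from yolk sac progenitors and keep their identity through a set of DNA-binding proteins that act together at enhancers. Runx1 marks the hematopoietic progenitors from which they come, Irf8 is needed for their development and binds DNA with the macrophage factor PU.1 (Spi1), and Cebpa and Cebpb belong to the C/EBP family of leucine zipper factors. Mef2a and Mef2c bind AT-rich sites of microglial enhancers, Maf is a large leucine zipper factor of macrophages, Smad3 carries the TGF-beta signal to the nucleus, and Irf5 acts downstream of Toll-like receptors on cytokine genes.

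The promoter windows of 3 genes are printed here because the results below turn on Cebpa, on Runx1 with its pair of promoters, and on Irf8 as a highly expressed gene with the same core promoter box as Cebpa. All coordinates are on GRCm38. The letters are RefSeq sequence of GRCm38.p6, 5′ to 3′ on the strand of the gene, and end at the last base before the annotated start. Capitals mark a TATA box (TATAAA) or a CCAAT box (CCAAT), searched on both strands. The Cebpa window is chr7:35119043-35119292 (plus strand), the Irf8 window chr8:120736108-120736357 (plus strand), the distal Runx1 window chr16:92826150-92826324 (minus strand), and the proximal Runx1 window chr16:92697330-92697579 (minus strand). From the distal Runx1 window the 75 bases nearest the RefSeq start were left out because they lie in the first exon of Runx1-201.
Cebpa: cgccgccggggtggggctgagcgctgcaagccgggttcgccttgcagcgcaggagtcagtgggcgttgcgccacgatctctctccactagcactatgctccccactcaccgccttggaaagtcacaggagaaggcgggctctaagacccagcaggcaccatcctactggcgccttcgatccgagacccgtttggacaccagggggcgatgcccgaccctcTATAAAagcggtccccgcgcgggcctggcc
Irf8: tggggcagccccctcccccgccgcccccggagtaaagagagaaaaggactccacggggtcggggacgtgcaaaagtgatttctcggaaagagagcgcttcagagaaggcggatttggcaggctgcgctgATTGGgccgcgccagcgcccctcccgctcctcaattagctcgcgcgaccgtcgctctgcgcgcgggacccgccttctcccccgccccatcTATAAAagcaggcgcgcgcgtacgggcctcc
Runx1 distal: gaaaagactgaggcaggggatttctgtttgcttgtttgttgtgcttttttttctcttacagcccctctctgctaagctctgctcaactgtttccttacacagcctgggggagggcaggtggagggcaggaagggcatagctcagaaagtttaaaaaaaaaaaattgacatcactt
Runx1 proximal: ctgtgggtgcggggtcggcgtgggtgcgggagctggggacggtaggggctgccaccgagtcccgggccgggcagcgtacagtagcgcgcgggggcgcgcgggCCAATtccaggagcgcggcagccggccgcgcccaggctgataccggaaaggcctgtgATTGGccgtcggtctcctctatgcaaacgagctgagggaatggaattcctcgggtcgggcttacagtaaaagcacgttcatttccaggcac

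Cebpa and Irf8 held a TATA box at nearly the same distance from their starts, beginning 30 bases before the start in Cebpa and 31 bases before it in Irf8. The letters TATAAA were found on either strand in 4 of the 12 RefSeq promoter windows and in 12.4% of all 32851 windows of 250 bases. The 12 windows cover 8 of the 9 genes and hold none for Maf. Outside Cebpa and Irf8 the matches were in Mef2c windows, as TTTATA on the opposite strand, beginning 107 and 22 bases before the start. A CCAAT box was found in 5 of the 12 windows, including both full Runx1 windows, and in 33.8% of all windows. The full distal Runx1 window had its CCAAT boxes within the part not printed. The motifs searched for the factors themselves were the interferon-stimulated response element (ISRE) for IRF, GAGGAAGT for PU.1, TTGCNNAA for C/EBP, TGTGGT for RUNX, and the MEF2 site, which occurred in 2.98%, 2.44%, 9.56%, 14%, and 3.2% of all windows, and none of these was in any of the 12 windows. TGCTGA for MAF (16.1% of all windows) was in a second, weakly used promoter of Irf8 and in 1 promoter of Mef2c, and GTCTGT for SMAD (13.2%) and TGANTCA for AP-1 (6.75%) were in the same Mef2c promoter. These are matches of letters in short windows and describe no binding.

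The targeted mRNAs were lower in the libraries of their siRNA. Chd8 was between 93.6 and 118 normalized CPM (the count scaled by library size) in control siRNA and between 38.3 and 86.8 under Chd8 siRNA, and Tsc2 was between 38.9 and 40.8 under control siRNA and between 24.6 and 36.5 under Tsc2 siRNA. The log2 fold change was −0.86 for Chd8 (edgeR adjusted p = 1.00) and −0.38 for Tsc2 (adjusted p = 1.00), and with the replicate number in the model −0.93 (adjusted p = 0.00777) and −0.39 (adjusted p = 0.219). Total counts per library ranged from 16913448 to 33213801, and 3 counts, taken as the floor of detection, were 0.0903 to 0.177 CPM, which covers counting error only. Libraries with the same replicate number deviated together from their group means, so results of a second model that also holds the replicate number (the block) are given where a call changes. The microglial markers Csf1r (405 to 572 CPM), Aif1 (44.7 to 96.2), and C1qb (612 to 866) were high in every library, whereas markers of resting microglia were low, with 0.69 to 2.78 CPM for P2ry12 and 0 to 1.11 for Tmem119. The 7 markers of border or infiltrating macrophages summed to 70.2 to 97.8 CPM, most of it Mrc1 (55.6 to 84.0 CPM), and Lyve1 was the 1 marker of that list at 0 in every library. The 7 neuronal markers summed to 1.4 to 5.9 CPM. The 8 astrocyte markers summed to 11.99 to 14.6 CPM in the libraries numbered 1, 24.4 to 27.3 in those numbered 2, and 47.1 to 106.4 in those numbered 3. The 7 fibroblast, mural, or endothelial markers summed to 15.7 to 20.3, 21.2 to 36.0, and 31.4 to 69.2 CPM, and the neuronal markers to 1.4 to 2.0, 2.4 to 3.4, and 3.1 to 5.9 CPM, in the same order of numbers. In bulk RNA, fewer cells of a type and less RNA per cell cannot be told apart.

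Compared per transcript length, the 9 genes spanned more than 2 orders of magnitude. Cebpb was highest, with a mean of 142 TPM (the scaled count divided by transcript length, computed here from annotated lengths) and a range of 104 to 204 over the 9 libraries. It was followed by Irf8 (mean 98.3, range 82.5 to 125), Irf5 (94.8, 68.1 to 117), Maf (73.5, 63.1 to 84.7), Runx1 (34.6, 18.0 to 57.3), and Mef2a (26.1, 15.8 to 38.9). Mef2c (3.22, 2.16 to 4.08), Smad3 (1.36, 0.86 to 2.10), and Cebpa (0.96, 0.45 to 1.68) formed a low group. Among the genes tested, 1.39% had a higher mean TPM than Cebpb and 53.3% a higher one than Cebpa. The ranges did not overlap between Maf and Runx1, between Mef2a and Mef2c, or between Mef2c and Smad3. Irf8 was above Irf5 in 5 of 9 libraries, Irf5 above Maf in 6, and Runx1 above Mef2a in 7, with overlap in every siRNA group, so these neighbours did not differ beyond their spread. Smad3 was above Cebpa in 7 of 9 libraries, with overlap under control and Tsc2 siRNA but not under Chd8 siRNA, where Smad3 was at 0.90 to 1.95 TPM and Cebpa at 0.45 to 0.63. Cebpb was above Irf8 in 8 of 9.

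**Figure D1:**
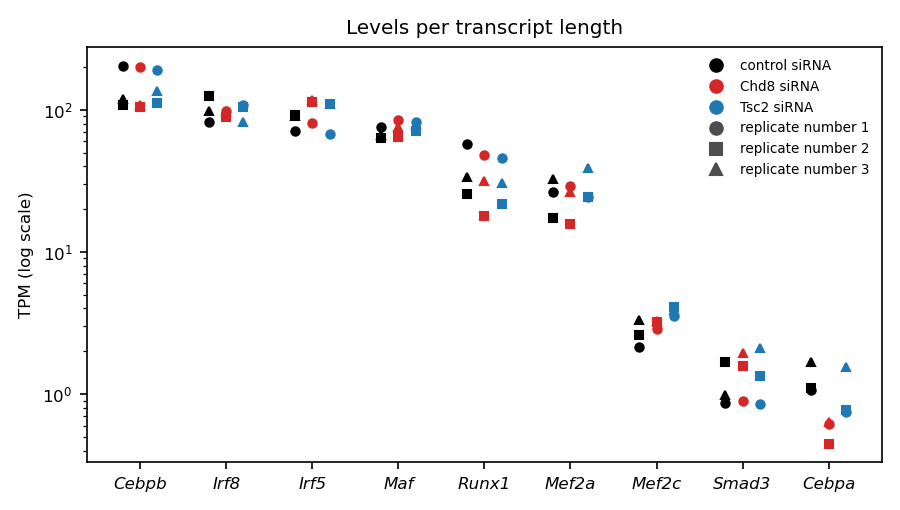
TPM of the 9 factors on a log scale, ordered by their mean, with 1 point per library (color, siRNA; shape, replicate number). Mef2c, Smad3, and Cebpa lie below 5 TPM in every library and the other factors above 15.

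The question of the main comparison was whether the lineage factors differ when Chd8 or Tsc2 is lowered. Without the replicate block, the quasi-likelihood test of edgeR, adjusted after Benjamini and Hochberg, called 0 of the 9 factors at an FDR of 0.05 and a fold of 1.5 in Chd8 siRNA against control siRNA, where 0% of all genes were called. The count was also 0 in Tsc2 siRNA against control siRNA and in Chd8 siRNA against Tsc2 siRNA, each again with 0% of genes called. At an unadjusted p under 0.05 there were 622, 425, and 504 genes, of which 1, 0, and 1 was a lineage factor, Cebpa in both cases. DESeq2's Wald test called 9, 6, and 5 genes and 0 lineage factors. With the replicate block 1 of 9 factors, Cebpa, was called in Chd8 siRNA against control siRNA (0.535% of all genes), and 0 in Tsc2 siRNA against control siRNA (0.387%) and in Chd8 siRNA against Tsc2 siRNA (0.221%). With the block, 2091, 1737, and 1745 genes had an unadjusted p under 0.05, of which 4 (Runx1, Maf, Cebpa, and Irf5), 1 (Runx1), and 2 (Cebpa and Irf5) were lineage factors. The median log2 fold change of the 9 factors was −0.06 under Chd8 siRNA and 0.12 under Tsc2 siRNA, both against control siRNA, beside −0.02 and −0.02 over all genes tested. Both comparisons use the same control siRNA libraries.

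Cebpa (chr7:35119293-35121928, plus strand), which drives granulocyte and monocyte differentiation, was measured at 5.35, 6.47, and 7.98 normalized CPM in control siRNA libraries 1, 2, and 3. It was at 2.95, 2.74, and 2.96 in the Chd8 siRNA libraries and at 3.76, 4.26, and 6.73 in the Tsc2 siRNA libraries. All 3 Chd8 siRNA libraries were below every other library, whereas the Tsc2 siRNA and control siRNA libraries overlapped. These values rest on 105 to 186 counts in control siRNA, 43 to 88 under Chd8 siRNA, and 85 to 230 under Tsc2 siRNA. The mean was 6.60 ± 1.32 (SD, n = 3) for the control, 2.88 ± 0.12 (SD, n = 3) for Chd8 siRNA, and 4.92 ± 1.59 (SD, n = 3) for Tsc2 siRNA. The Chd8 siRNA level was 0.44 of the control siRNA level, a log2 fold change of −1.19 (standard error, SE, 0.29, unadjusted p = 0.0020, adjusted p = 1.00 from edgeR). With the replicate block Cebpa was called lower, with a log2 fold change of −1.16 (SE 0.25, adjusted p = 0.0405 from edgeR), and DESeq2 without the block gave an adjusted p of 0.219.

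The difference of Cebpa had the same sign in each replicate number, with −0.76, −1.10, and −1.29 on the log2(normalized CPM + 0.5) scale for numbers 1, 2, and 3. The two-sided exact permutation test gave p = 0.1, the smallest that 3 libraries against 3 allow. Across the 9 fits that each left out 1 library with the block kept, the log2 fold change stayed between −1.35 and −0.98 and the adjusted p between 0.033 and 0.243, and Cebpa was called in 2 of them, without Tsc2 siRNA library 1 and without Tsc2 siRNA library 3. Leaving out any control siRNA or Chd8 siRNA library, or Tsc2 siRNA library 2, therefore ended the call. Against Tsc2 siRNA, Chd8 siRNA had a log2 fold change of −0.77 (SE 0.29, adjusted p = 1.00, and −0.73 with adjusted p = 0.283 with the block, both edgeR), and Tsc2 siRNA against control siRNA had −0.42 (SE 0.28, adjusted p = 1.00, and −0.44 with adjusted p = 0.574 with the block).

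The count of factors whose groups did not overlap was 1 of 9 in Chd8 siRNA against control siRNA (9.09% of all genes tested), 0 in Tsc2 siRNA against control siRNA (8.11%), and 1 in Chd8 siRNA against Tsc2 siRNA (8.44%), and Cebpa was the member in both cases. A share of 1 in 9 is close to that of all genes. The summed microglial markers overlapped between control siRNA (2437.6 to 3066.9 CPM) and Chd8 siRNA (2678.3 to 3411.6 CPM), and so did the summed astrocyte markers (14.6 to 106.4 and 13.6 to 47.1 CPM), and the control siRNA library with most Cebpa also had most astrocyte marker RNA. Their part in the Cebpa difference was not tested. Cebpa-201, the single-exon transcript that held 88.3% of the Cebpa counts, was at 4.12, 6.39, and 7.73 CPM in control siRNA and at 2.75, 1.81, and 2.63 under Chd8 siRNA, whereas Cebpa-202, which starts 10 bases upstream, held the other 11.7% and overlapped between the groups. The antisense gene Gm45091 inside Cebpa was at 0 in every library.

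**Figure D2:**
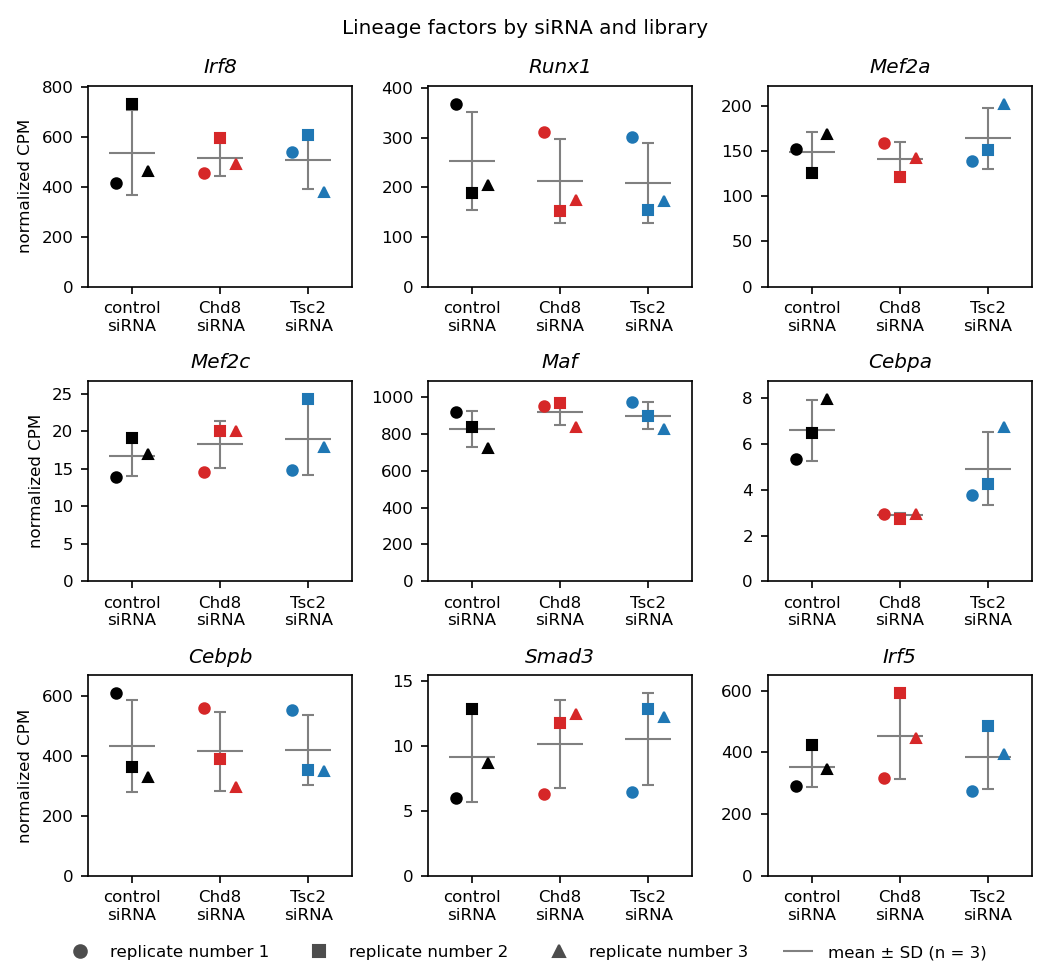
Normalized CPM of each factor in the 9 libraries (points, shaped by replicate number), with the mean and SD of each siRNA group (n = 3) in gray and axes starting at 0. Only for Cebpa do the 3 Chd8 siRNA points, at 2.74 to 2.96, lie below all control siRNA points, at 5.35 to 7.98.

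Cebpb (chr2:167688915-167690418, plus strand), the C/EBP factor of inflammatory gene induction, was at 607, 362, and 329 normalized CPM in control siRNA, 558, 391, and 297 under Chd8 siRNA, and 553, 354, and 348 under Tsc2 siRNA. In each group the library numbered 1 stood above the other 2, and the groups overlapped. The log2 fold changes were −0.06 (SE 0.30) with Chd8 siRNA and −0.05 (SE 0.30) with Tsc2 siRNA, both with an adjusted p of 1.00 from edgeR. Cebpb has 1 transcript, in a single exon, and Tmem189 on the opposite strand overlaps it with 65.5 to 120 CPM. The strand setting of the quantification is not given in the sources used here. Per length, the other C/EBP genes lay between Cebpb and Cebpa, with means over all libraries of 19.1 TPM for Cebpd and 4.27 for Cebpg and Ddit3 between these, while Cebpe was at 0 in every library. Of the 5 C/EBP genes tested, Cebpa was the 1 called with the block in Chd8 siRNA (0.535% of all genes), and 0 were called in Tsc2 siRNA (0.387%).

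Irf8 (chr8:120736358-120756694, plus strand) was at 415, 732, and 466 normalized CPM in control siRNA, 458, 596, and 493 under Chd8 siRNA, and 539, 607, and 380 under Tsc2 siRNA. The groups overlapped, and the highest library in each group carried the number 2. Its log2 fold change was −0.06 (SE 0.24, adjusted p = 1.00 from edgeR) with Chd8 siRNA and −0.08 (SE 0.24, adjusted p = 1.00) with Tsc2 siRNA. Irf5 (chr6:29526625-29541871, plus strand) was at 292, 424, and 346 normalized CPM in control siRNA, 317, 591, and 447 under Chd8 siRNA, and 276, 485, and 396 under Tsc2 siRNA. Every Chd8 siRNA library was above the control siRNA library of its number, by 0.12, 0.48, and 0.37 on the log2(normalized CPM + 0.5) scale, yet the groups overlapped. The log2 fold change of 0.35 (SE 0.26) had an adjusted p of 1.00 from edgeR, and with the block it was 0.32 (SE 0.08) with an adjusted p of 0.0622, under the fold threshold. With Tsc2 siRNA it was 0.12 (SE 0.26, adjusted p = 1.00 from edgeR). Tnpo3 overlaps Irf5 on the opposite strand with 47.7 to 54.2 CPM. Of the 8 IRF genes tested, 0 were called in any comparison with or without the block, and Irf7, the interferon-amplifying member, had a mean of 221 TPM.

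Runx1 (chr16:92601466-92826149, minus strand) was at 368, 189, and 205 normalized CPM in control siRNA, 311, 153, and 175 under Chd8 siRNA, and 303, 154, and 172 under Tsc2 siRNA. The libraries numbered 1 stood above the others in every group, and within each number both siRNAs gave lower values than the control. The differences within numbers 1, 2, and 3 were −0.24, −0.30, and −0.23 with Chd8 siRNA and −0.28, −0.30, and −0.25 with Tsc2 siRNA on the log2(normalized CPM + 0.5) scale. The log2 fold change with Chd8 siRNA was −0.25 with a standard error of 0.36 (adjusted p = 1.00 from edgeR), and with the block −0.26 with a standard error of 0.07 (adjusted p = 0.0945). With Tsc2 siRNA it was −0.28 (SE 0.36, adjusted p = 1.00) and with the block −0.28 (SE 0.07, adjusted p = 0.0997), so Runx1 passed neither the FDR nor the fold threshold. Cbfb, the partner subunit of Runx1, had log2 fold changes of 0.12 with Chd8 siRNA and 0.23 with Tsc2 siRNA and was not called. Of the RUNX family with its partner (Runx1, Runx2, and Cbfb), 0 of the 3 genes tested were called in any comparison.

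Runx1 is transcribed from the distal and the proximal promoter printed above. Of its 7 transcripts, Runx1-202, which starts at the proximal promoter, held 41.4% of the counts, another protein-coding transcript from a start further inside 19.7%, the distal Runx1-201 18.1%, a retained intron transcript 14.3%, and the distal Runx1-207 5.15%. The transcripts that start at the distal promoter together took 20.9%, 25.7%, and 29.5% of the Runx1 counts in control siRNA, 21.01%, 24.2%, and 33.04% under Chd8 siRNA, and 18.7%, 23.7%, and 25.8% under Tsc2 siRNA. The library numbered 1 had the lowest distal share in every group, although it had the most Runx1. The mean share was 25.4% ± 4.29 (SD, n = 3) for the control, 26.1% ± 6.24 (SD, n = 3) for Chd8 siRNA (two-sided exact permutation p = 0.9), and 22.7% ± 3.67 (SD, n = 3) for Tsc2 siRNA (p = 0.5). Within numbers 1, 2, and 3 the distal share under Tsc2 siRNA differed from the control by −2.28, −1.96, and −3.71 percentage points, lower in 3 of 3, and under Chd8 siRNA by 0.069, −1.51, and 3.54, in both directions. These shares are estimates, since reads from shared exons were divided between transcripts by the quantification.

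**Figure D3:**
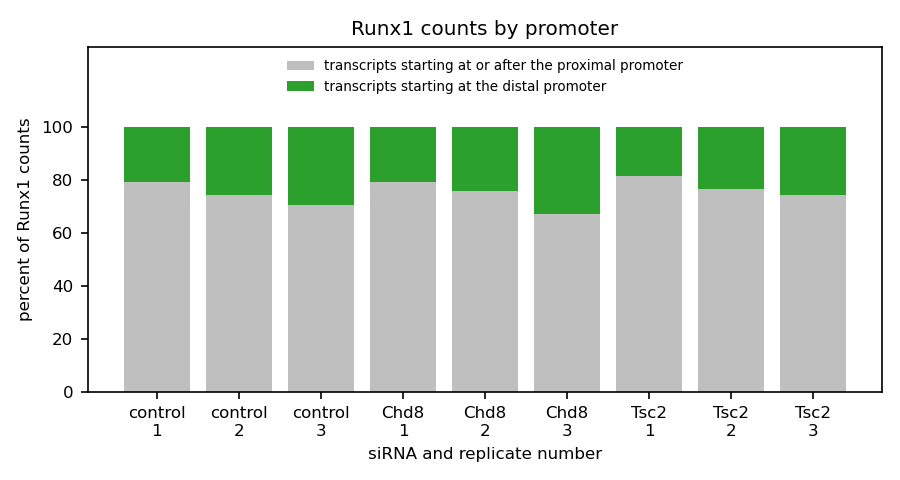
Share of the Runx1 counts in each library (percent) held by transcripts that start at the distal promoter (green) and at or after the proximal promoter (gray). The distal share is lowest in the 3 libraries numbered 1, at 18.7% to 21.01%, and reaches 33.04% in Chd8 siRNA library 3.

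Mef2a (chr7:67231163-67372858, minus strand) was at 153, 126, and 169 normalized CPM in control siRNA, 159, 121, and 143 under Chd8 siRNA, and 139, 152, and 202 under Tsc2 siRNA. These groups overlapped, with log2 fold changes of −0.08 (SE 0.18) and 0.14 (SE 0.18) and an adjusted p of 1.00 from edgeR for both siRNAs. Mef2c (chr13:83504034-83667080, plus strand), the relative with the lower level per length, was at 13.9, 19.1, and 16.9 normalized CPM in control siRNA, 14.6, 20.1, and 20.03 under Chd8 siRNA, and 14.8, 24.3, and 17.9 under Tsc2 siRNA. Each siRNA library was above the control siRNA library of its number, by 0.07 to 0.24 with Chd8 siRNA and by 0.08 to 0.34 with Tsc2 siRNA on the log2(normalized CPM + 0.5) scale, and the groups overlapped. The log2 fold changes of Mef2c were 0.13 (SE 0.23) and 0.19 (SE 0.23), with an adjusted p of 1.00 from edgeR for both. The counts of Mef2c were divided among its 31 transcripts, of which 8 were at 0 in every library and 1 was above 0 in every library. Its most counted transcript, Mef2c-212, held between 0% and 34.9% of the Mef2c counts. Mef2d, at a mean of 5.62 TPM, was not called, nor was any of the 3 MEF2 genes tested.

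Maf (chr8:115682942-115707794, minus strand) was at 917, 838, and 724 normalized CPM in control siRNA, 952, 970, and 839 under Chd8 siRNA, and 973, 899, and 828 under Tsc2 siRNA. Within each number the control siRNA library was the lowest of the 3. The log2 fold changes were 0.16 (SE 0.13) with Chd8 siRNA and 0.12 (SE 0.13) with Tsc2 siRNA, both with an adjusted p of 1.00 from edgeR, and the groups overlapped. Maf-202 held 94.7% of the counts. Of the 5 MAF genes tested, 0 were called in any comparison, with or without the block.

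Smad3 (chr9:63646767-63757994, minus strand) was at 6.00, 12.9, and 8.67 normalized CPM in control siRNA, 6.30, 11.7, and 12.4 under Chd8 siRNA, and 6.49, 12.8, and 12.2 under Tsc2 siRNA. The libraries numbered 1 were lowest in every group and the groups overlapped. The log2 fold changes were 0.15 (SE 0.37) and 0.20 (SE 0.37), with an adjusted p of 1.00 from edgeR for both siRNAs. Smad2, which carries the same TGF-beta signal, was at a mean of 6.30 TPM and the common partner Smad4 at 10.3, and 0 of the 8 SMAD genes tested were called. Among the 14 tested genes of CSF1 and TGF-beta signaling 0 were called as well. Csf1r, the receptor that microglia need for survival, had log2 fold changes of −0.15 and −0.16 with Chd8 and Tsc2 siRNA, and the receptor Tgfbr1 −0.37 and 0.15. The TGF-beta repressor Ski had −0.26 and −0.19.

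**Figure D4:**
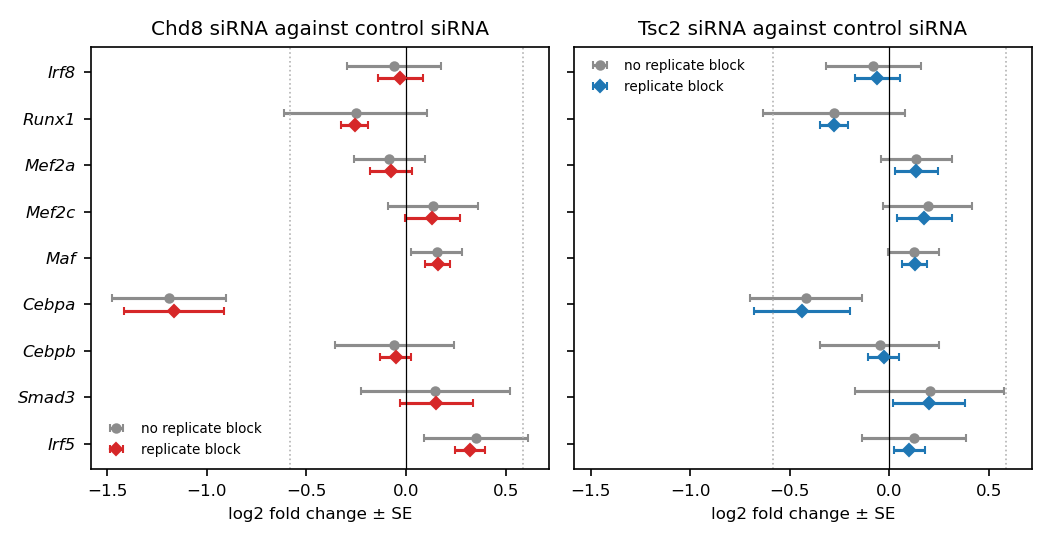
Log2 fold change of each factor against control siRNA with its standard error, without the replicate block (gray circles) and with it (colored diamonds), and the 1.5-fold threshold as dotted lines. Cebpa in Chd8 siRNA, at −1.19 and −1.16, is the one point beyond the threshold, and the standard errors of Runx1 shrink from 0.36 to 0.07 with the block.

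The replicate number was then tested as a factor of its own in the edgeR fit, a test added after the data were seen. By this test 7 of the 9 factors differed between replicate numbers at an FDR of 0.05, beside 25.0% of all genes tested. Runx1 (adjusted p = 7.9e-08) and Cebpb (2.58e-06) were higher in all 3 libraries numbered 1 than in the other 6, with 303 to 368 against 153 to 205 normalized CPM for Runx1 and 553 to 607 against 297 to 391 for Cebpb. Irf5 (1.21e-05), Smad3 (0.0018), and Mef2c (0.0233) were lower in all 3, which makes 5 of 9 factors apart beside 18.8% of all genes, with 276 to 317 against 346 to 591 normalized CPM for Irf5. For Smad3 the ranges were 6.00 to 6.49 against 8.67 to 12.9 normalized CPM, and for Mef2c 13.9 to 14.8 against 16.9 to 24.3.

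Irf8 (adjusted p = 0.00383) and Maf (0.0171) also differed between numbers, with overlap between number 1 and the rest. Mef2a (0.0527) and Cebpa (0.288) did not pass. By number, Irf8 was at 415 to 539, 596 to 732, and 380 to 493 normalized CPM in numbers 1, 2, and 3. The share of all genes with number 2 apart from the rest was not computed. The log2 difference of number 2 from number 1 ranged from −0.98 in Runx1 to 1.00 in Smad3, and that of number 3 from number 1 was −0.83 and 0.82 in the same genes. The astrocyte, neuronal, and fibroblast, mural, or endothelial marker sums given above were higher in the libraries numbered 3 than in those numbered 1. The 8 oligodendrocyte lineage markers ran the other way, with 24.2 to 27.4, 24.4 to 26.7, and 11.8 to 19.9 CPM in numbers 1, 2, and 3, and so did the 12 microglial markers, with 3066.9 to 3411.6, 2998.5 to 3152.8, and 2437.6 to 3035.9 CPM. The part of these markers in the differences between numbers was not tested. The methods describe each replicate as a culture from a separate brain, and the sources used here do not say whether libraries of the same number share a culture.

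**Figure D5:**
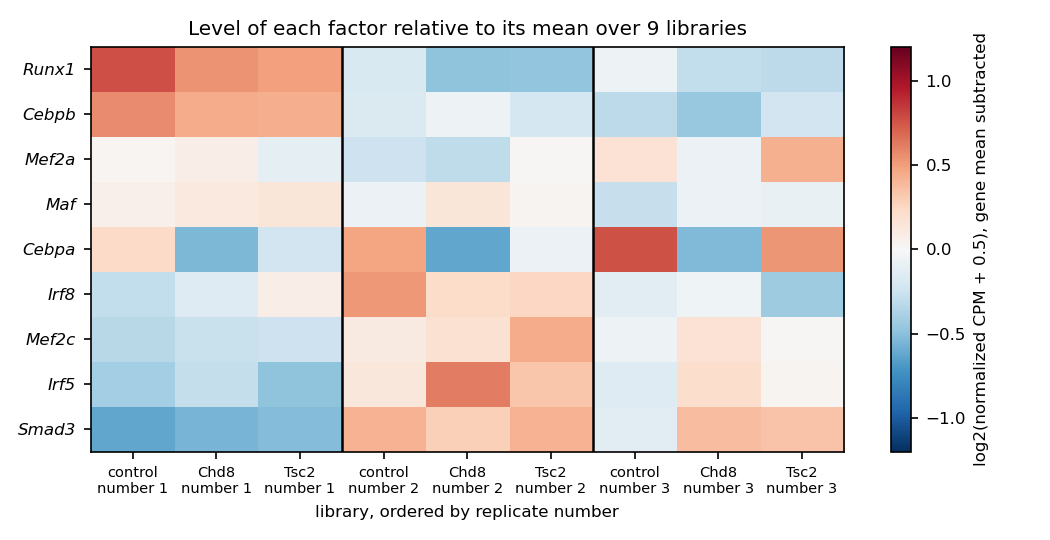
Log2(normalized CPM + 0.5) of each factor with its mean over the 9 libraries subtracted (red, above the mean; blue, below), libraries ordered by replicate number. Runx1 and Cebpb are red and Mef2c, Irf5, and Smad3 blue in all 3 libraries numbered 1, whereas Cebpa is blue in all 3 Chd8 siRNA libraries.

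Among single transcripts, 73 belonged to the 9 genes and 41 of them passed the filter among 41633 transcripts. Of these, 0 were called in any of the 3 comparisons (0% of all transcripts) by edgeR, and at an unadjusted p under 0.05 there were 1384, 1177, and 1357 transcripts in all, of which Cebpa-201 was the single member, in Chd8 siRNA against control siRNA and against Tsc2 siRNA. DESeq2 called 188, 172, and 187 transcripts and 0 of the members. Irf8-201 held 84.3% to 87.0% of the Irf8 counts in the libraries numbered 1 and 90.3% to 96.3% in the others. Smad3-201 held 95.2% and Irf5-201 92.9% of the counts of their genes, and the Mef2a counts were spread over Mef2a-201 (27.3%), Mef2a-208 (26.1%), Mef2a-204 (19.0%), Mef2a-205 (8.73%), and Mef2a-212 (6.33%).

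Of the 23 other transcription factors of microglia tested, Ets1 was called higher with the block in Chd8 siRNA (0.535% of all genes) and 0 were called in Tsc2 siRNA. Ets1 belongs to the ETS family, as does PU.1. Ets1 was at 2.00, 5.73, and 7.59 normalized CPM in control siRNA, 6.06, 14.1, and 16.7 under Chd8 siRNA, and 3.88, 8.77, and 13.3 under Tsc2 siRNA. The groups overlapped, with low values in the libraries numbered 1 throughout, and within each number Chd8 siRNA was highest. Its log2 fold change was 1.33 (SE 0.19, edgeR adjusted p = 0.00472) with the block and 1.27 (SE 0.57, adjusted p = 1.00) without it. Spi1, the gene of PU.1, had means of 353, 413, and 436 normalized CPM in control, Chd8, and Tsc2 siRNA, all 3 Tsc2 siRNA libraries lay above the control libraries, and it was not called (log2 fold change 0.30, SE 0.15, adjusted p = 1.00, and 0.0743 with the block, edgeR). Klf6 had log2 fold changes of 0.26 and 0.29, Egr1 and Fos 0.38 and 0.40 with Chd8 siRNA, and Mitf 0.26 with Tsc2 siRNA, none of them called.

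A further list held genes taken here as targets of these factors, and their regulation by the factors was not tested. Of its 26 tested genes, 0 were called in Chd8 siRNA. In Tsc2 siRNA 1, Sparc, was called lower with the block (0.387% of all genes). Sparc, a secreted matrix protein, was at 3.24, 29.6, and 93.7 normalized CPM in control siRNA, at 3.25, 25.1, and 79.3 under Chd8 siRNA, and at 2.73, 19.6, and 46.1 under Tsc2 siRNA. The groups overlapped, and the log2 fold change was −0.70 (SE 0.14, edgeR adjusted p = 0.0346) with the block and −0.88 (SE 1.26, adjusted p = 1.00) without it. Its level followed the replicate number in the same order as the astrocyte markers and the fibroblast, mural, or endothelial markers, among them the collagen gene Col1a1 at 1.98 to 2.56 CPM in number 1 and 13.2 to 44.0 in number 3, and their part was not tested. Ptgs2, an inducible prostaglandin synthase, had a log2 fold change of −0.39 (adjusted p = 0.0116 with the block) and the microglial calcium-binding protein Aif1 0.53 (adjusted p = 0.0452 with the block) in Tsc2 siRNA, both under the fold threshold. Ctss, a lysosomal protease, had 0.33 with Tsc2 siRNA, and Cd68, Aif1, and C1qb had 0.27, 0.36, and 0.23 with Chd8 siRNA without being called. Il1b, an inflammatory cytokine gene picked after its values were seen, was between 1399 and 3840 normalized CPM and Ptgs2 between 2725 and 4667 over all libraries, control siRNA included. The median log2 fold changes of the 9 lists lay between −0.13 for the SMAD family and 0.14 for the IRF family with Chd8 siRNA, and between −0.11 for CSF1 and TGF-beta signaling and 0.19 for the MEF2 family with Tsc2 siRNA.

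Over the 9 libraries, the gene most like each factor in level, among up to 6149 genes with at least 10 normalized CPM, is given as a description, since the points share replicate numbers. Cebpb went with Gpsm3 (Pearson r = 0.985), Runx1 with the glycolytic enzyme gene Pkm (0.981), Smad3 with Ddhd1 (0.986), Irf5 with Gm5431 (0.981), Maf with the syndecan gene Sdc3 (0.980), and Mef2c with Appl1 (0.977). Cebpa went with A330023F24Rik (0.948), Irf8 with the kinesin gene Kif1c (0.946), and Mef2a with Prag1 (0.930). An r of 0.9 or more was reached by 253 genes for Cebpb and 214 for Runx1, but by 11 for Irf8, 7 for Cebpa, and 6 for Mef2a.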

How the data were processed

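RNA-seq of primary mouse microglia was available for 9 libraries, 3 each of control, Chd8, and Tsc2 siRNA, grouped by their titles. Reads had been quantified by the authors (salmon 0.14.1, mm10, tximport), and the deposited values are estimated counts per transcript, neither normalized nor pooled. The annotation release is not given in the sources used here. Transcripts were matched to GENCODE mouse release 21 (1096 of 140948 unmatched, 0.27% of counts), summed to genes, and rounded.

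Genes were tested with edgeR 4.0.16 (quasi-likelihood, filterByExpr, TMM, all 9 libraries in one fit, siRNA as the only factor) in R 4.3.3, with p-values adjusted over all genes tested. Calls needed an FDR of 0.05 and a fold of 1.5. Alternatives were DESeq2 1.42.0, its size factors, no filter, protein-coding transcripts, 2 groups per fit, no fold threshold, each library left out, and the replicate number as a block. Libraries of the same number, taken from the titles, had correlated deviations from the group means (r of 0.24 to 0.52, against −0.38 to 0.04 between numbers), so the numbers were taken to pair the libraries. The methods describe each culture as from a separate brain, and where that does not hold p-values cover technical spread only.

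All 9 factors are named. Of each list, the 3 genes with the lowest p at 10 CPM or more were eligible, with called genes, transcripts with 5% of a factor's counts, and the gene most correlated with each factor. The members and lists were chosen with earlier results of these data known. The tests were tried on simulated data. TPM used annotated lengths. The protein table was not used here.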

Additional observations from a re-analysis of the deposited data

How the results depend on the processing

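Of 648 log2 fold changes of the 9 factors under the alternatives, 589 kept their direction and side of the threshold, 56 turned their sign, 3 passed the threshold, and 0 lost it. With no low-count filter 2 genes were called in Chd8 siRNA and 1 in Tsc2 siRNA against control siRNA. DESeq2 called 9 genes for Chd8 and 6 for Tsc2 siRNA against the control, and 5 for Chd8 against Tsc2 siRNA. With the replicate block there were 87, 63, and 36 genes and 1 lineage factor, Cebpa in Chd8 siRNA, and the block changed the call of no other factor. With each library left out in turn, with and without the block, the counts ranged from 0 to 108, 0 to 131, and 0 to 130 genes, and from 0 to 1 lineage factor in Chd8 siRNA. With the block, the Chd8 siRNA count was 29 without control library 2, 20 without control library 3, and 25 and 29 without Chd8 siRNA libraries 2 and 3, and the Tsc2 siRNA count 23 and 7 without control libraries 2 and 3, 131 without Tsc2 siRNA library 1, and 16 and 14 without Tsc2 siRNA libraries 2 and 3. For Chd8 against Tsc2 siRNA it was 81, 9, and 4 without Chd8 siRNA libraries 1, 2, and 3, and 130, 7, and 6 without Tsc2 siRNA libraries 1, 2, and 3. Ets1 and Sparc were not followed through these fits. Cebpa in Chd8 siRNA ranged from −1.35 to −0.98.

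Signs turned in fits without 1 library as follows, over fits with and without the block together, and the cause was not tested. With Chd8 siRNA the log2 fold changes ranged from −0.22 to 0.23 (Irf8), −0.63 to 0.11 (Runx1), −0.22 to 0.043 (Mef2a), −0.33 to 0.27 (Cebpb), and −0.085 to 0.47 (Smad3). With Tsc2 siRNA they ranged from −0.24 to 0.21 (Irf8), −0.64 to 0.091 (Runx1), −0.038 to 0.30 (Mef2a), −0.022 to 0.34 (Mef2c), −0.30 to 0.28 (Cebpb), −0.029 to 0.53 (Smad3), and −0.073 to 0.32 (Irf5). In Chd8 against Tsc2 siRNA they ranged from −0.15 to 0.22 (Irf8), −0.35 to 0.39 (Runx1), −0.21 to 0.16 (Mef2c), −0.027 to 0.091 (Maf), −0.28 to 0.24 (Cebpb), −0.31 to 0.20 (Smad3), and −0.014 to 0.43 (Irf5), and Runx1 was −0.0098 with protein-coding transcripts only. With the block kept, Runx1 held its sign without any 1 library, from −0.27 to −0.24 with Chd8 siRNA and from −0.29 to −0.26 with Tsc2 siRNA, and so did Mef2a, Mef2c, Smad3, and Irf5 with Tsc2 siRNA, and Runx1, Maf, and Irf5 in Chd8 against Tsc2 siRNA, so that their turns arose in fits without the block.

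With 3 libraries a group an exact permutation test cannot go below p = 0.1, and Cebpa rests on as few as 43 counts in a library.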
